A study of Homo sapiens with 4 samples.

Results

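The genes described here encode the chaperones of the endoplasmic reticulum (ER), the ER-associated degradation machinery, the sensors of the unfolded protein response, and the heat shock proteins of the cytosol and mitochondria with their transcription factors. They were chosen by name, as 37 genes, and each is read by the probe sets that carry its symbol and no other in the platform annotation. Of the 37, 33 were measured, among 13717 genes that passed a filter on low signal. SYVN1, HSPA1A and HSPA8 are covered by probe sets that carry several symbols, and HSF2 had no probe set with its symbol in the annotation used, so these 4 are not analysed here. The 33 genes have 81 probe sets, of which 78 passed the filter, and 23 genes have more than 1.

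The samples came from Jurkat, a human line grown from a T cell leukaemia, in 4 groups of 1 array each. One line carried a vector or control hairpin (titles and design text name it differently) and the other a short hairpin RNA against IKKε, the kinase encoded by IKBKE; they are called the control line and the shIKKE line. Each line received solvent or PMA (10 ng/ml) with ionomycin (0.5 uM) for 3 h, which activate protein kinase C and raise cell calcium in place of a T cell receptor signal. The labels do not say whether a line is 1 clone or how the hairpin was delivered. With 1 array per group, a difference between arrays has no replicate check, and differences below are values without a p-value.

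Proteins that enter the ER are folded by the HSP70 chaperone BiP (HSPA5), the HSP90 chaperone GRP94 (HSP90B1), the lectin chaperones calnexin and calreticulin, and the protein disulfide isomerases. When unfolded proteins build up there, the sensors IRE1 (ERN1), ATF6 and PERK signal to the nucleus; IRE1 splices the mRNA of XBP1, and spliced XBP1 and cleaved ATF6 raise the transcription of chaperone and degradation genes. In the cytosol, unfolded proteins release the heat shock factor HSF1, which drives genes of HSP70, HSP90, HSP40 and small heat shock proteins. T cells draw on the ER pathway when they begin to make and secrete cytokines.

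The targeted gene was read by 2 probe sets. The brighter one read 340 at rest and 520 stimulated for the control line, and 180 and 248 for the shIKKE line, and the other read 218, 311, 287 and 280, so only the first was lower in the shIKKE line in both states. The median signal of an array lay between 48.8 and 69.1, and both stimulated arrays had the higher medians. The ratio of 5′ to 3′ signal of the ACTB control probe sets, which tracks RNA integrity, was 0.244 and 0.401 for the control line and 0.339 and 0.266 for the shIKKE line, solvent first. That of the GAPDH control probe sets was 1.06 and 1.06 for the control line and 1.04 and 1.17 for the shIKKE line. All 12 T cell markers checked passed the filter, and their summed signal lay between 73237 and 81115. Of 5 B cell, 5 myeloid, 4 natural killer and 5 erythroid and epithelial markers with a probe set, 3, 3, 1 and 2 passed, and no signal of these was above 416; their part in the results was not tested.

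By the probe sets that represent the genes, 6 members differed at least 2-fold between lines or treatments. The 250 bases before the start of each are shown because each of them holds a stress element. The sequences are from RefSeq (GRCh38.p14), 5′ to 3′ on the gene's strand. HSPA5 lies at chr9:125241344-125241593 on the minus strand, HSP90B1 at chr12:103930160-103930409 on the plus strand, CALR at chr19:12938359-12938608 on the plus strand, SDF2L1 at chr22:21642052-21642301 on the plus strand, XBP1 at chr22:28800570-28800819 on the minus strand and SERPINH1 at chr11:75562003-75562252 on the plus strand. Capitals mark an ER stress element (CCAAT, 9 bases of any kind, then CCACG) in HSPA5, HSP90B1, CALR and XBP1, an ER stress element II (ATTGG, 1 base, then CCACG) in SDF2L1, and a heat shock element (3 alternating GAA and TTC units spaced by 2 bases) in SERPINH1, each searched on both strands. CALR, SDF2L1 and the second site of HSP90B1 hold the element on the opposite strand.
HSPA5: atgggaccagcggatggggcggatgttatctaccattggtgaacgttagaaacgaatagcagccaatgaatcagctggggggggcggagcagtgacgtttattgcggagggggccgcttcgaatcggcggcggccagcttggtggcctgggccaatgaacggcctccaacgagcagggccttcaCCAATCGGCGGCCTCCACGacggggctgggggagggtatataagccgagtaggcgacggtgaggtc
HSP90B1: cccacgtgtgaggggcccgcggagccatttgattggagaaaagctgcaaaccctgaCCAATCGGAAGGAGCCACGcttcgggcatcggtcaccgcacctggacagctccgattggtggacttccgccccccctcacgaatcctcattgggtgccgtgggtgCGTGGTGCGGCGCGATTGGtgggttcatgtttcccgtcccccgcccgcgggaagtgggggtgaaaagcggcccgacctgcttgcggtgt
CALR: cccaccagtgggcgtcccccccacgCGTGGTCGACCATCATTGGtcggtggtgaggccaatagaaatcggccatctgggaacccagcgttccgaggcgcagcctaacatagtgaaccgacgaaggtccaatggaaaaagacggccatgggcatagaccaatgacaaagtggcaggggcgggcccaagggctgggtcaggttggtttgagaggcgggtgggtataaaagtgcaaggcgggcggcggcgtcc
SDF2L1: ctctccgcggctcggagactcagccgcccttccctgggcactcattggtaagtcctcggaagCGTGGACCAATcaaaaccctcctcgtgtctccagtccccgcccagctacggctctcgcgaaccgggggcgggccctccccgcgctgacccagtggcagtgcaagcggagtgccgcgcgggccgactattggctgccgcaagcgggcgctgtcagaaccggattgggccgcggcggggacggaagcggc
XBP1: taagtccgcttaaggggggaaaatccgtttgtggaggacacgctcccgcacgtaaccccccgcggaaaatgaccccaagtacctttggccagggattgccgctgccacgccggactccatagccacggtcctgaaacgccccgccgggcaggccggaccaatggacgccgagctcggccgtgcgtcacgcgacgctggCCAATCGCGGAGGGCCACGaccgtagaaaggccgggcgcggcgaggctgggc
SERPINH1: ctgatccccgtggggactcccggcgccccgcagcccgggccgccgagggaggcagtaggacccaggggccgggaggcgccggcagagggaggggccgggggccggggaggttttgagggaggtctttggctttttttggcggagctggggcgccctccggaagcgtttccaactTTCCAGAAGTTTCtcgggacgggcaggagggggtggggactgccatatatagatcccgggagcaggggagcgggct

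Promoter windows of 300 bases, from 250 before to 50 after the start, were matched for 35 of the 37 genes (PDIA3 and HSF1 were not), 22 of the ER and 13 of the other genes. The ER stress element was found in 6 of the 22 ER genes (HSPA5, HSP90B1, CALR, CANX, CRELD2 and XBP1) and in none of the 13, against 0.0806% of the 27305 promoters in the table, that is 22 promoters. The ER stress element II was found in SDF2L1, HYOU1 and HERPUD1, against 0.0549% of all promoters. Together the 2 forms were in 9 of these genes, which is 24.3% of all 37 promoters that hold either. The heat shock element was in HSPA8, DNAJA1 and SERPINH1 (0.487% of all promoters), and the unfolded protein response element (TGACG followed by TGG) in HYOU1 (0.795%), where it overlaps an ER stress element II. The 5-base core CCACG, which is part of both ER stress elements, was in 17 of 22 and 6 of 13 windows, against 37.9% of all. These elements were defined in part on some of these promoters, and a match is a description of letters and not a bound site.

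**Figure D1:**
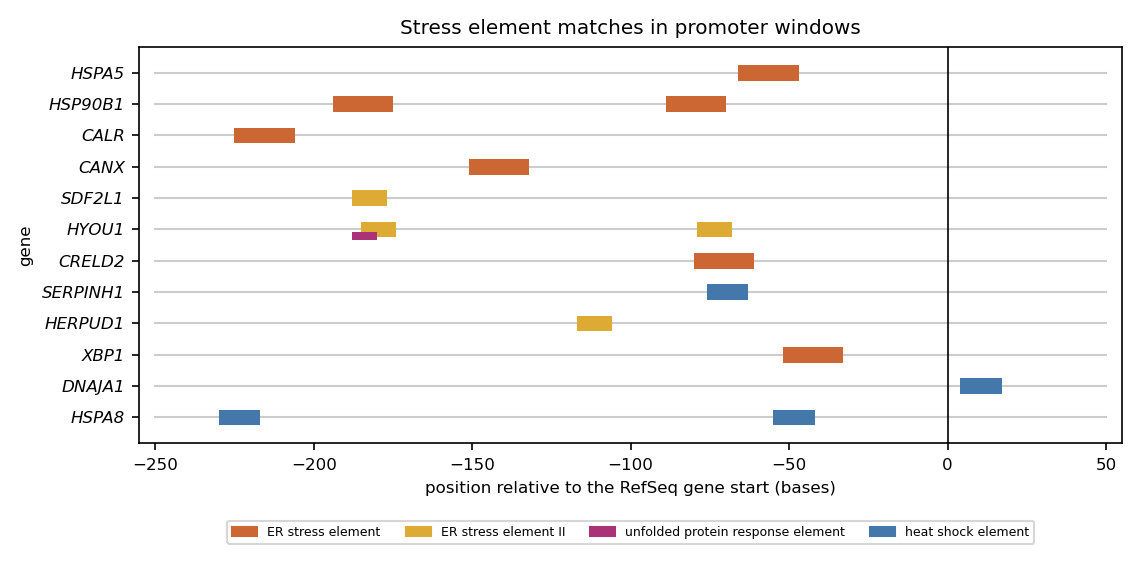
Position of each stress element match (coloured boxes) in bases from the RefSeq gene start, one row per gene with a match. The matches of HSPA5 (-66 to -48), XBP1 (-52 to -34) and CRELD2 (-80 to -62) lie close to the start. About as close are 1 match each of HSPA8 (-55 to -43), SERPINH1 (-76 to -64), HYOU1 (-79 to -69) and HSP90B1 (-89 to -71). DNAJA1 has its heat shock element just after the start (4 to 16).

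The comparison of the lines with solvent asked how the shIKKE line differed at rest. Most ER chaperone genes read higher in the shIKKE line. Of 16 in this class, 15 had a log2 difference above 0 (46.3% of all genes), with a median of 0.65, against -0.05 for all genes and -0.02 for genes above the median level, where 32 of the 33 members lie. At least 2-fold higher were SDF2L1, HSPA5, CALR and HSP90B1, that is 4 of the 33 members (4.34% of all genes), and no member was 2-fold lower (6.68% of all genes). Of the 6859 genes above the median level, 121 were at least 2-fold higher and 171 lower. Log2 differences are of signal plus 14.1 and so understate the change of dim genes.

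**Figure D2:**
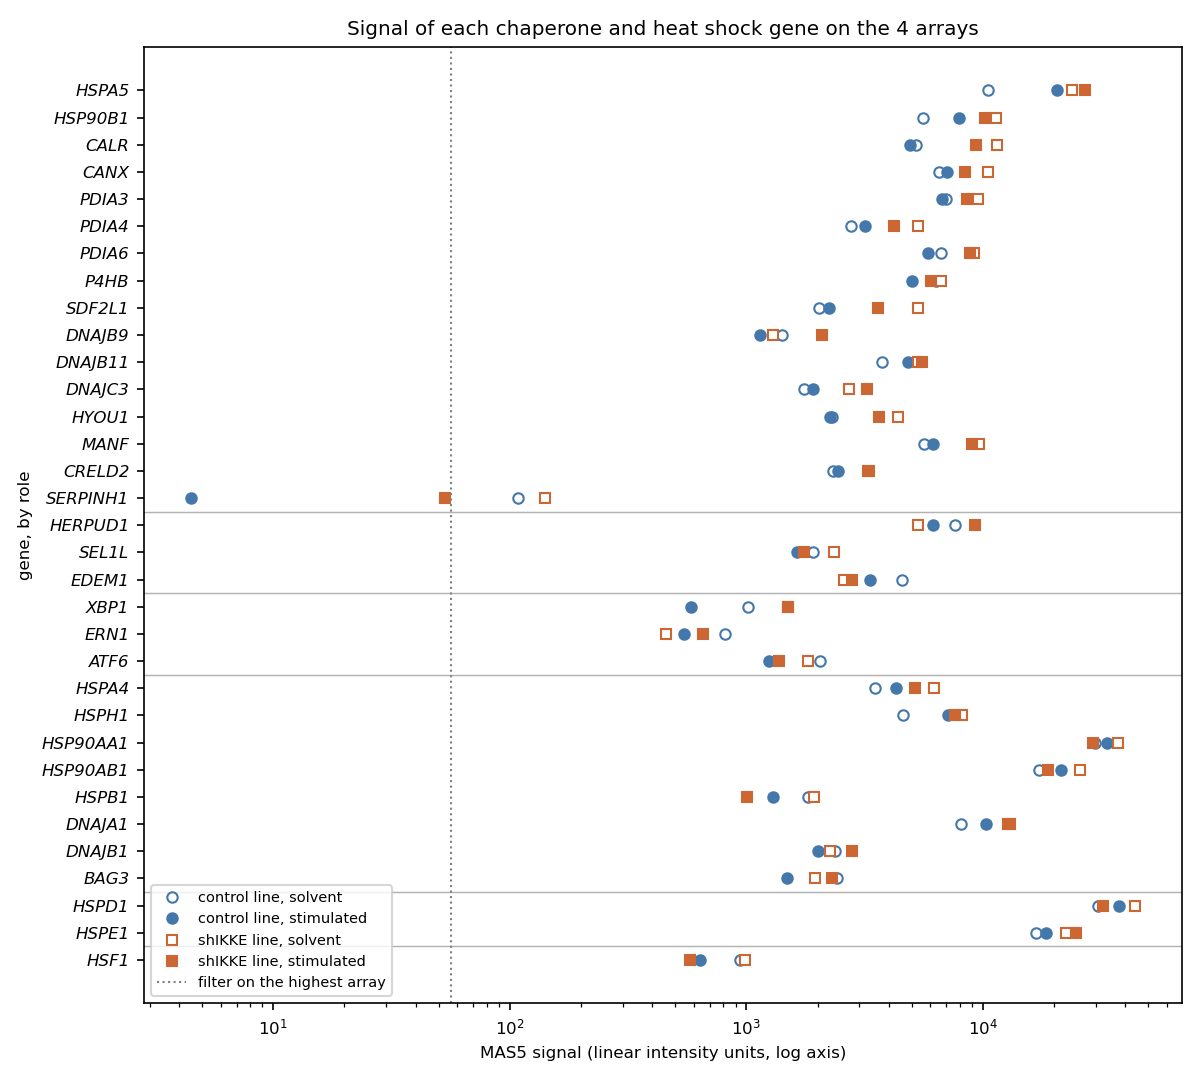
MAS5 signal (log axis) of the probe set that represents each of the 33 genes, grouped by role, with open symbols for solvent and filled for stimulation, circles for the control line and squares for the shIKKE line; the dotted line is the filter of 56.4. For HSPA5, SDF2L1, HYOU1, MANF and CRELD2 both squares lie to the right of both circles, and SERPINH1 is the dim gene at 4.5 to 141.

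HSPA5, the ER HSP70 that also binds the unfolded protein response sensors, read 10521 on the resting control array, 20495 on the stimulated control array, 23685 on the resting shIKKE array and 27031 on the stimulated shIKKE array. The resting control array was the low one, and the other 3 lay closer together. The log2 difference of the lines was 1.17 with solvent and 0.40 with stimulation, and a dimmer probe set (274, 360, 638 and 653 in the same order, which is kept below) gave 1.18 and 0.83.

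HSP90B1, the ER HSP90, read 5596, 7902, 11394 and 10168. Again the resting control array was lowest, with a log2 difference of the lines of 1.02 with solvent and 0.36 with stimulation. Its dimmer probe set (464, 334, 584 and 464) gave 0.32 and 0.46, and the median of both gave 0.67 with solvent, below 2-fold.

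CALR, the soluble lectin chaperone calreticulin, read 5203, 4922, 11420 and 9309. Both control arrays lay below both shIKKE arrays, with log2 differences of 1.13 with solvent and 0.92 with stimulation. The other 2 probe sets also read higher in the shIKKE line in both states (log2 0.70 and 0.60, and 0.48 and 0.83). With the median log2 signal of the 3 taken on each array, the difference with solvent was 0.48, which is that of the middle probe set by signal. The probe sets that represent HSP90B1, CALR and HSPA4 have the suffix x, which the platform's naming gives to sets that may cross-hybridise.

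SDF2L1, an ER protein that works with the J-domain co-chaperones of HSPA5, read 2022, 2233, 5319 and 3616 by its only probe set. It had the highest log2 difference of the lines among the members with solvent (1.39), and 0.69 with stimulation. Both shIKKE arrays lay above both control arrays.

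The other ER co-chaperones had smaller differences in the same direction. HYOU1, the large ER HSP70 that exchanges nucleotide on HSPA5, read 2309, 2252, 4361 and 3619 (log2 difference of the lines 0.91 with solvent and 0.68 with stimulation). MANF, a secreted ER stress factor, read 5638, 6155, 9647 and 8977 (0.77 and 0.54), and CRELD2, another ER stress-induced protein, read 2320, 2429, 3298 and 3262 (0.51 and 0.42). In each of these genes the control arrays were the lower pair in both states.

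The J-domain proteins of the ER, which hand substrates to HSPA5, differed among themselves. DNAJC3 read 1760, 1921, 2718 and 3236, with the shIKKE line higher in both states (log2 0.62 and 0.75), and DNAJB11 read 3749, 4832, 5331 and 5510 (0.51 and 0.19). DNAJB9, a J-domain protein that restrains IRE1, read 1420, 1144, 1290 and 2078, so it was close in both lines with solvent (log2 -0.14) and higher in the stimulated shIKKE array than in the other 3 arrays (0.85 over the stimulated control). Its other 2 probe sets had the same order of signs, with -0.76 and -0.92 with solvent and 0.78 and 1.18 with stimulation.

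Of the protein disulfide isomerases, which form and reshuffle disulfide bonds, PDIA4 read 2772, 3186, 5319 and 4212 and differed most between the lines (log2 0.94 with solvent, 0.40 with stimulation). PDIA6 read 6665, 5838, 9129 and 8779 (0.45 and 0.59) and PDIA3, the isomerase that works with calnexin and calreticulin, read 7001, 6725, 9549 and 8567 (0.45 and 0.35). P4HB, the isomerase that is also a subunit of prolyl 4-hydroxylase, read 6338, 5027, 6627 and 6031 and was the nearest to equal of the 4 with solvent (0.06 and 0.26). The membrane-bound lectin chaperone CANX read 6545, 7044, 10477 and 8385 (0.68 and 0.25), and its other 3 probe sets past the filter gave 0.55 to 1.04 with solvent and -0.28 to 0.25 with stimulation.

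The degradation genes and the sensors shared no direction at rest. HERPUD1, a membrane scaffold of the degradation complex, read 7613, 6137, 5334 and 9290, lower in the resting shIKKE array (log2 -0.51) and higher in the stimulated one (0.60). A dim probe set of it (28.5, 110, 29.8 and 44) differed, with 0.04 and -1.09. EDEM1, a mannosidase-like lectin that takes glycoproteins to degradation, read 4564, 3329, 2585 and 2798, with the shIKKE line lower in both states (-0.82 and -0.25). SEL1L, the adaptor of the ligase SYVN1, read 1907, 1640, 2350 and 1758 (0.30 and 0.10), and its 3 dim probe sets read at most 188.

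XBP1, the transcription factor made active by IRE1, read 1017, 585, 1501 and 1497. The stimulated control array was the low one, and the log2 difference of the lines was 0.56 with solvent and 1.33 with stimulation. A dim probe set (8.21, 48.2, 33 and 97.5) gave 1.08 and 0.84, and the annotation does not say which splice form either reads. ERN1, which encodes IRE1, read 810, 545, 457 and 656, so the resting shIKKE array was lowest (-0.81 with solvent, 0.26 with stimulation). Its other probe sets did not share this order, with 0.33 and -0.73 with solvent and -0.12 and -0.47 with stimulation. ATF6, the sensor that is cleaved in the Golgi, read 2044, 1241, 1820 and 1379 (-0.17 and 0.15), with both stimulated arrays below both solvent arrays by this probe set. Its other 3 probe sets past the filter responded at 0.03, 0.08 and 0.24 in the shIKKE line and at -0.50, -0.15 and -0.67 in the control line, and the third of them gave -1.10 between the lines with solvent.

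Cytosolic heat shock genes also read higher in the resting shIKKE line, by less. Of the 11 measured cytosolic, mitochondrial and heat shock factor genes, 9 had a log2 difference above 0 (46.3% of all genes, and 3340 of the 6859 genes above the median level), with a median of 0.43, and none reached 2-fold by the probe set that represents it. HSPH1, the HSP110 exchange factor, read 4601, 7085, 8125 and 7627 (log2 difference of the lines 0.82 with solvent and 0.11 with stimulation). Its other 2 probe sets gave 1.45 and 1.01 with solvent, and -0.06 and 0.59 with stimulation. HSPA4, another exchange factor of that family, read 3495, 4301, 6181 and 5143 (0.82 and 0.26). In both genes the resting control array was the lowest of the 4.

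DNAJA1, a cytosolic HSP40, read 8076, 10354, 13067 and 12770 (log2 0.69 with solvent and 0.30 with stimulation), and a second probe set read 4494, 8301, 9641 and 8784 (1.10 and 0.08). HSP90AB1, the constitutive HSP90, read 17305, 21421, 25752 and 18822 (0.57 and -0.19), and HSP90AA1, the inducible one, read 29644, 33458, 37370 and 29122 (0.33 and -0.20). The mitochondrial chaperonin HSPD1 read 30608, 37451, 43867 and 32301 (0.52 and -0.21), and its partner HSPE1 read 16687, 18457, 22409 and 24755 (0.43 and 0.42). HSPD1 and HSPE1 lie head to head on chromosome 2, so that their promoter windows overlap. With stimulation their differences had opposite signs by the probe sets that represent them. The other HSPD1 probe sets past the filter gave -0.14 and 0.56 with stimulation, and 0.64 and 1.44 with solvent, so the sign depended on the probe set. These genes are among the brightest probe sets, where the highest signal on any array was 49339, and they have many processed copies in the genome, which the probe sets may also read.

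The remaining genes of this class, HSPB1, DNAJB1, BAG3 and HSF1, had the smallest or negative differences with solvent by the probe sets that represent them. HSPB1, the small heat shock protein HSP27, read 1826, 1291, 1935 and 1011 (log2 difference of the lines 0.08 and -0.35). DNAJB1, a classical HSF1 target, read 2380, 2011, 2266 and 2791 (-0.07 and 0.47). Its other probe set read 929, 756, 1128 and 1358 and was higher in the shIKKE line in both states (0.28 and 0.83). The co-chaperone BAG3 read 2409, 1488, 1958 and 2300 (-0.30 and 0.62). HSF1, the transcription factor, read 937, 640, 985 and 578 (0.07 and -0.14). By these probe sets HSPB1 and HSF1 had lower signals on both stimulated arrays, while DNAJB1 and BAG3 were lowest in the stimulated control array. A second probe set of HSF1 had responses above 0 in both lines (0.24 and 0.20).

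**Figure D3:**
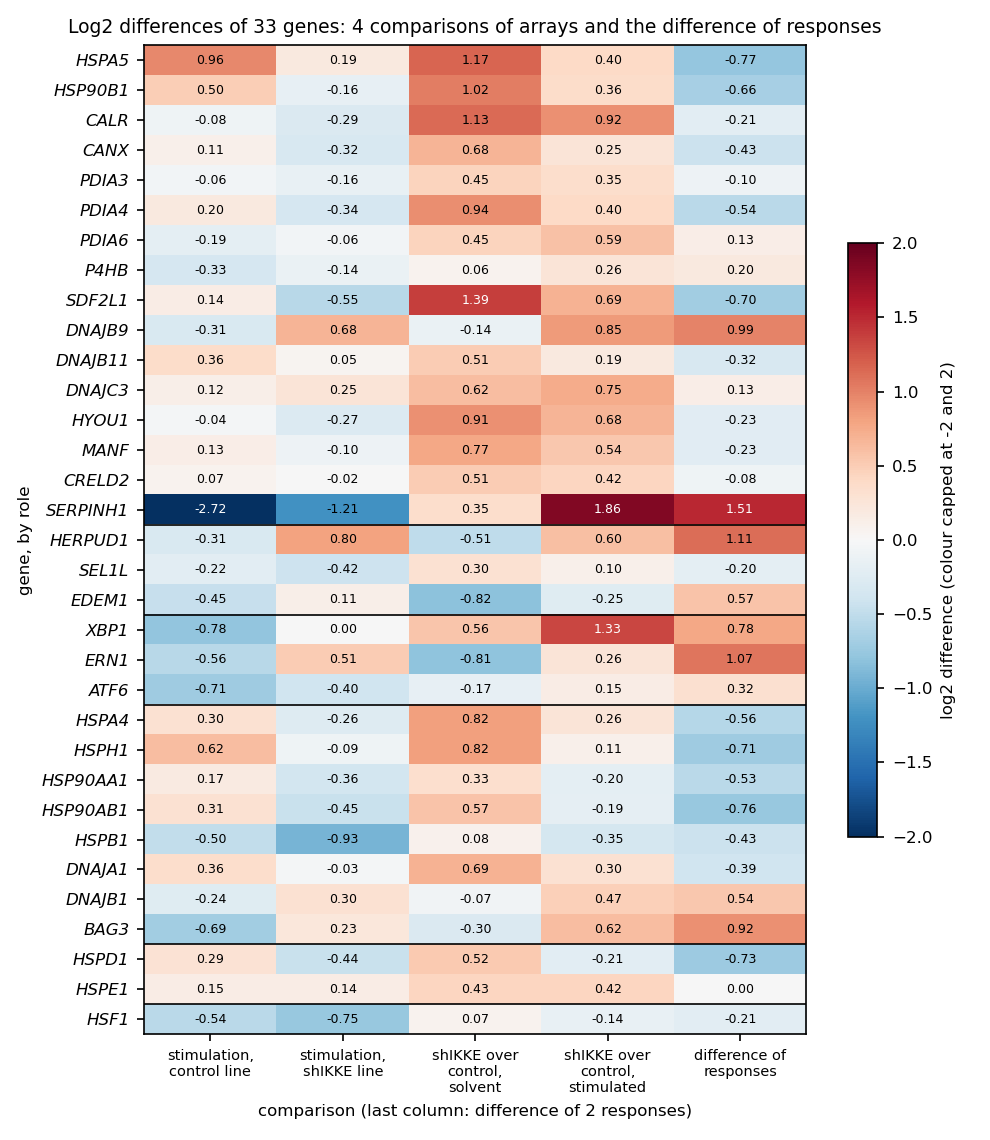
Log2 differences of the 33 genes (rows, by role) in the 4 comparisons of single arrays and, in the last column, for the difference of the lines' responses, with red for higher and blue for lower, colour capped at -2 and 2. The column of the lines with solvent is red for 26 of 33 genes, and HERPUD1, EDEM1 and ERN1 stand out in blue.

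With stimulation, the lines were compared again on the other pair of arrays. Of 33 members, 27 read higher in the shIKKE line (53.5% of all genes), 2 of them at least 2-fold (5.99% of all genes), SERPINH1 and XBP1, and none 2-fold lower (2.37%). SERPINH1 was below the filter on both arrays of this comparison. Of the 6859 genes above the median level, 3201 were above 0, with 20 at least 2-fold higher and 35 lower. Of the 22 ER genes 21 were above 0, with a median log2 of 0.41 against 0.03 for all genes, and EDEM1 was the exception. Of the 11 other genes 6 were above 0, with a median of 0.11. Both states together, 21 of 33 members read higher in the shIKKE line (27.2% of all genes). By the 78 probe sets past the filter, 66 were higher with solvent and 55 with stimulation. The share over all probe sets was not computed, and a gene with several probe sets is counted several times there, so these counts add no separate evidence.

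**Figure D4:**
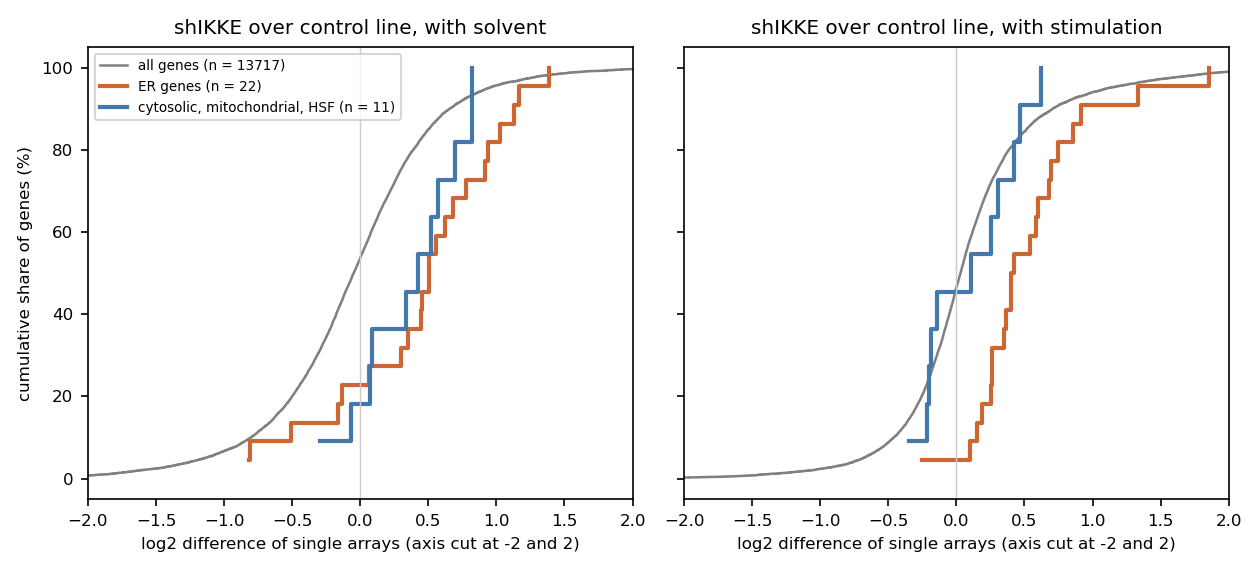
Cumulative share of genes (%) by log2 difference of the shIKKE over the control line, with solvent (left) and with stimulation (right), for all 13717 genes (grey), 22 ER genes (orange) and 11 other members (blue). Both coloured curves lie to the right of grey with solvent (medians 0.51 and 0.43), and with stimulation the blue curve crosses it (median 0.11) while the orange stays to the right (0.41).

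By the probe set that represents each gene, stimulation for 3 h left nearly all members within 2-fold in either line. In the control line none was 2-fold higher (7.57% of all genes) and 1 was 2-fold lower (6.44%), and in the shIKKE line likewise none (10.3%) and 1 (2.68%). The gene was SERPINH1 in both, a dim gene that passed the filter only through its solvent arrays. It was thus selected by the state where it read higher, and nothing is read from that count. By the probe sets that represent them, the other 32 members stayed within 2-fold. Among all 78 probe sets past the filter, 6 were at least 2-fold higher and 2 lower in the control line, and 3 and 1 in the shIKKE line. The share over all probe sets was not computed. SERPINH1 is again among the lower ones, and dim probe sets of HERPUD1 and XBP1, among the higher ones, passed the filter only through a stimulated array. Nothing is read from these counts either. Responses above 0 were counted for 16 members of the control line (45.3% of all genes) and 10 of the shIKKE line (49.2%). Among the 6859 genes above the median level, where 32 of the members lie, 2938 and 2504 were above 0, with medians of -0.08 and -0.12. The median log2 response was -0.07 for ER genes and 0.17 for the others in the control line, and -0.12 and -0.26 in the shIKKE line. Over all genes the medians were -0.07 and -0.01.

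SERPINH1, the ER chaperone HSP47 of procollagen, read 108 on the resting and 4.5 on the stimulated control array, and 141 on the resting and 53.3 on the stimulated shIKKE array. Both solvent arrays lay above both stimulated arrays. The log2 response was -2.72 (control line) and -1.21 (shIKKE line), and the lines differed by 0.35 with solvent and 1.86 with stimulation. It is the dimmest of the 33 genes, has 1 probe set and stands below the filter of 56.4 on both stimulated arrays. Its sizes depend on the pseudocount, with -4.59 in the control line without one and -1.43 with one 4 times larger. With the latter limma called it for stimulation (4.18% of all genes), but the solvent arrays alone had brought it past the filter, so that its stimulation values are a description and no call is read from them.

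HSPA5 had the highest response of the members in the control line (log2 0.96, and 0.38 by its dimmer probe set), against 0.19 in the shIKKE line. After it came HSPH1 (0.62) and HSP90B1 (0.50, with -0.46 by its dimmer probe set), which in the shIKKE line gave -0.09 and -0.16. The lowest control-line responses after SERPINH1 were XBP1 (-0.78), ATF6 (-0.71), BAG3 (-0.69) and ERN1 (-0.56). For XBP1 the sign depended on the probe set, with 1.48 by its dim one and 0.35 by the median of both, and for ERN1 the other probe sets gave 0.23 and -1.15. In the shIKKE line HERPUD1 (0.80), DNAJB9 (0.68) and ERN1 (0.51) led, and HSPB1 (-0.93), HSF1 (-0.75) and SDF2L1 (-0.55) were lowest after SERPINH1. The other probe sets of ERN1 gave -0.22 and -0.89 in the shIKKE line, and that of HERPUD1 0.41. DNAJB9 reached 1.55 in the shIKKE line by a dimmer probe set, and DNAJC3, at 0.12 and 0.25 in the control and shIKKE lines, reached 1.34 and 1.28 by one. A further probe set of DNAJC3 gave 1.16 and 0.17. Dim probe sets of HERPUD1, HSPA4 and SEL1L gave 1.54, 1.51 and 1.44 in the control line, and 0.41, 0.49 and 0.33 in the shIKKE line. The other dim probe sets of SEL1L gave 0.80 and 0.54 in the control line, against -0.22 by the one that represents it. In the shIKKE line the dim probe set of XBP1 gave 1.25. Those of HERPUD1 and XBP1 passed the filter only through a stimulated array.

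**Figure D5:**
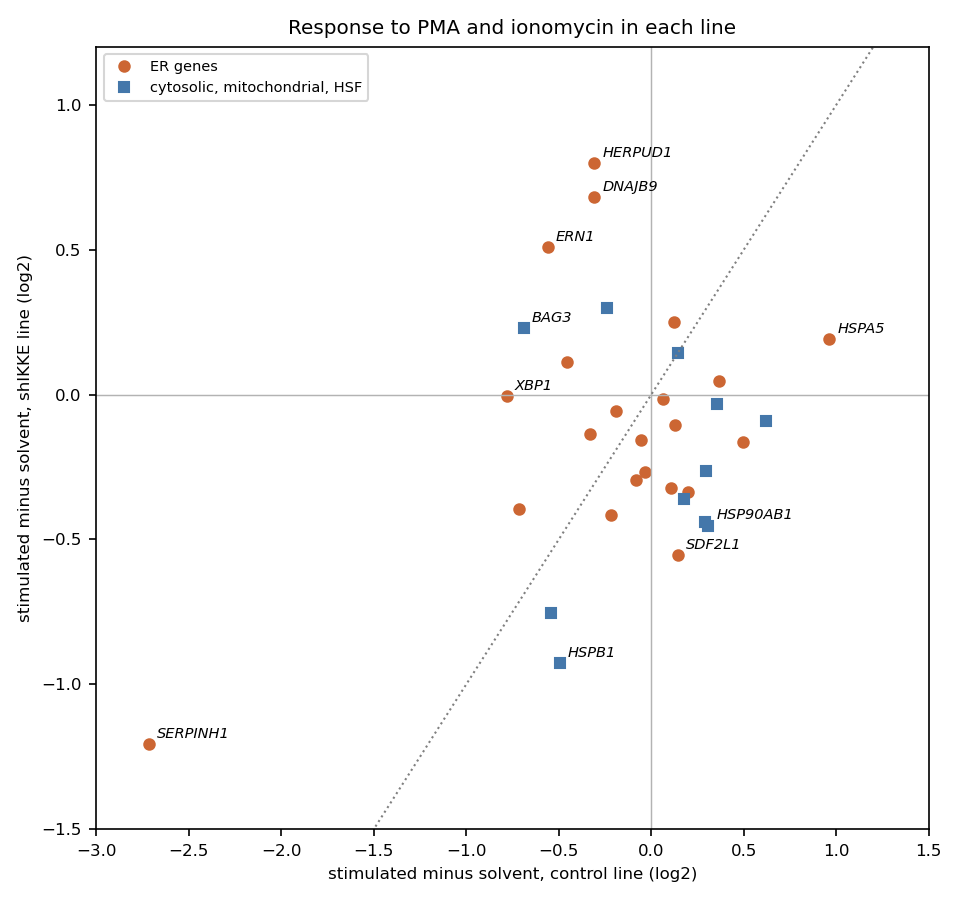
Log2 response to PMA and ionomycin of the control line (horizontal) and of the shIKKE line (vertical) for 22 ER genes (circles) and 11 other members (squares), with a dotted line where both are equal. HERPUD1, DNAJB9, ERN1 and BAG3 lie at upper left, SDF2L1 and HSP90AB1 at lower right, and SERPINH1 is far below 0 on both axes.

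The difference of the responses, the shIKKE response minus the control response, was at least 2-fold for SERPINH1 (log2 1.51), HERPUD1 (1.11) and ERN1 (1.07), against 11.4% of all genes in that direction, and for no member in the other (4.67%). None of these 3 calls held under every setting or probe set. The dim second probe set of HERPUD1, above the filter on 1 array, gave -1.13, the other 2 of ERN1 gave -0.45 and 0.26, SERPINH1 gave 0.58 with the larger pseudocount, and 1 of the 3 calls was left after median centring. DNAJB9 (0.99), BAG3 (0.92) and XBP1 (0.78, and -0.24 by its dim probe set) came next. In 12 members the difference of responses was above 0 (55.4% of all genes, and 3330 of the 6859 above the median level). Of those 6859 genes, it was at least 2-fold above 0 in 200 and below 0 in 115. The lowest were HSPA5 (-0.77), HSP90AB1 (-0.76), HSPD1 (-0.73) and HSPH1 (-0.71). In 18 of 33 members the responses had opposite signs, against 37.2% of all genes, and in 12 of these the shIKKE response was the negative one. The difference of responses, the responses and the comparisons of the lines use the same 4 arrays, so a high or low array enters several of them.

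Averaged over both states or both lines in a limma fit across all 13717 genes (additive model of line and stimulation, Benjamini-Hochberg adjusted), 0 of 33 members passed an adjusted p of 0.05 for the line (0% of all genes) and 0 for stimulation (0.00729%). At an unadjusted p under 0.05 there were 5 members for the line (7.29% of all genes) and 2 for stimulation (13.8%). For the line these were SDF2L1 (log2 1.04 ± 0.29, SE), CALR (1.02 ± 0.25), XBP1 (0.95 ± 0.31), HYOU1 (0.80 ± 0.25) and DNAJC3 (0.69 ± 0.25), all higher in the shIKKE line, with limma adjusted p from 0.572 to 0.676. For stimulation they were SERPINH1 (-1.96 ± 0.43, limma adjusted p = 0.189), which the filter had selected by its solvent arrays, and HSPB1 (-0.71 ± 0.27, limma adjusted p = 0.356). Its single residual degree of freedom (1) holds the unequal response of the lines and measures no spread between replicates. With an error variance that follows the signal level, which takes the error from other genes of like signal, 7 members passed for the line (1.69% of all genes): CALR, SDF2L1, HSPA5, XBP1, HSP90B1, HYOU1 and MANF. For stimulation 3 passed that way (7.61% of all genes), with HSPA5 higher and HSPB1 lower on the stimulated arrays; the third was SERPINH1, selected as said above.

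Among ER genes, the 9 with an ER stress element of either form had a median log2 difference of the lines of 0.91 with solvent and 0.60 with stimulation, and 8 and 9 of them read higher in the shIKKE line; HERPUD1 with solvent was the exception. The 12 measured genes with a window and no match gave medians of 0.32 and 0.33, with 8 and 11 higher. The ranges overlapped, at -0.51 to 1.39 and -0.82 to 0.94 with solvent, and HERPUD1 was the lowest of those with the element. PDIA4 (0.94), MANF (0.77) and DNAJC3 (0.62) had no match in the window. These values are a description, and the part of the elements in them was not tested.

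Other genes of these pathways were taken from lists by role. Other ER folding and secretory genes did not share the resting difference, with 15 of 31 measured above 0 (46.3% of all genes) and a median log2 of 0.0. At least 2-fold, 1 was higher (4.34% of all genes) and 2 were lower (6.68%). FKBP2, an ER prolyl isomerase, read 694, 996, 1582 and 1208 (log2 difference of the lines with solvent 1.17). ERO1B, which reoxidises disulfide isomerases, read 943, 572, 303 and 740 (-1.59), and CRELD1 read 218, 134, 77.3 and 200 (-1.34). SEC24D, a coat protein of vesicles that leave the ER, read 895, 469, 489 and 606 (-0.85). Of 16 other degradation genes 5 were above 0 with solvent (median -0.16), and HERPUD2 was at least 2-fold lower (-1.57).

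In the arm of PERK and ATF4, stimulation in the shIKKE line gave 5 of 14 genes at least 2-fold higher and none lower (10.3% and 2.68% of all genes), with a median log2 of 0.84 against -0.01 for all genes. In the control line 1 was higher and 3 lower (7.57% and 6.44%), with a median of 0.06 against -0.07. DDIT3, the factor CHOP, read 364, 1467, 437 and 2458, higher with stimulation in both lines (log2 1.97 and 2.45). EIF2AK3, which encodes PERK, read 1331, 1667, 1094 and 3095 (0.32 and 1.49). CHAC1, a glutathione-degrading enzyme, read 231, 90.9, 92 and 269 and had opposite responses in the lines (-1.22 and 1.42), as did the stress factor ATF3, which read 1407, 548, 329 and 1110 (-1.34 and 1.71). In these genes the stimulated shIKKE array was above the stimulated control array.

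Of 27 other cytosolic heat shock and HSP90 cochaperone genes, 22 were above 0 in the shIKKE over the control line with solvent, with a median log2 of 0.38, and 17 with stimulation (0.04). Of all genes, 46.3% were above 0 with solvent and 53.5% with stimulation. With solvent 2 of the 27 were at least 2-fold higher (4.34% of all genes) and 1 lower (6.68%). DNAJB6, an HSP40, read 471, 1039, 1398 and 1067 (1.54 with solvent, 0.04 with stimulation), and DNAJC2, a ribosome-bound J-domain protein, read 3316, 5738, 6967 and 6437 (1.07 and 0.17). For both the resting control array was the low one. HSPA2, an HSP70 best known from testis, read 379, 166, 176 and 162 (-1.05 and -0.03), and DNAJB4 read 348, 343, 168 and 437 (-0.99 and 0.34). The cytosolic chaperonin CCT and prefoldin genes had a median of 0.28 with solvent, with 10 of 12 above 0, and -0.07 with stimulation, and none was past 2-fold. Of 11 other mitochondrial chaperone and protease genes 7 were above 0 with solvent (median 0.16), and HSPA9, the mitochondrial HSP70, read 6731, 9385, 11736 and 11011 (0.80).

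Of 8 measured other unfolded protein response factors, 3 were above 0 with solvent (46.3% of all genes), with a median log2 of -0.11. ERN2, a dim relative of ERN1 at 51.1 to 344, was at least 2-fold higher (4.34% of all genes). Of 14 collagen and collagen-modifying genes that act with SERPINH1, 7 passed the filter. P4HA1, the catalytic subunit of prolyl 4-hydroxylase, read 4272, 1808, 1209 and 1238, so the resting control array was the high one (-1.81 between the lines with solvent and -0.54 with stimulation). COL6A2 read 17.7, 51.1, 50.8 and 95.2, near or below the filter.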

How the data were processed

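Gene expression was measured on 4 single-colour arrays, 1 per group, from 6 ug of total RNA each, per the labels' protocols. The deposited values are intensities on a linear scale, the MAS5 signal per the submitters' processing notes, with version, scaling target and filters not given in the sources used here. Every array had a mean of 499.93 once 2% was trimmed from each end, which shows a common scaling; detection calls were not used here. No columns were left out (0). Of 54675 probe sets, 41097 have 1 gene symbol in the platform annotation, 1801 several and 11777 none, and those with several or none were not named; the gene IDs of the 33 measured members were all found in the RefSeq table of GRCh38.p14. 62 array controls were left out.

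Values were log2 of signal plus 14.1, the 25th percentile of all signals. Probe sets whose highest array reached 56.4, the median signal, were kept, and the brightest probe set represented a gene. Differences of single arrays were counted at 2-fold and have no test. The additive fit used limma 3.58.1 in R 4.3.3 (lmFit, eBayes, two-sided, adjusted over 13717 genes). Other steps used Python 3.11.15, pandas 2.3.3, numpy 2.4.6 and matplotlib 3.10.9. The labels do not say whether samples came from separate cultures, and the number of arrays limits the precision.

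Members and lists were chosen with earlier results of these data known. Members at least 2-fold different in any of the 4 comparisons are given for every array, with the 3 brightest of each role; other members with their signals were named after their values were seen. From the other lists up to 4 genes with large differences were named. Alternatives were no or a larger pseudocount, no filter, quantile normalization, median centring, the median of a gene's probe sets and, for limma, a variance trend.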

Additional observations from a re-analysis of the deposited data

Results flagged for a closer look

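In 18 members the stimulated array was higher than the solvent array in one line and lower in the other. Each line has 1 pair of arrays, and the difference was not tested. The response was higher in the shIKKE line, as a log2 difference of responses, for HERPUD1 (1.11), ERN1 (1.07), DNAJB9 (0.99), BAG3 (0.92), EDEM1 (0.57) and DNAJB1 (0.54). The sign turned with the probe set for HERPUD1 (-1.13 by its dim second one) and ERN1 (-0.45 and 0.26 by its other two). It was lower in the shIKKE line for HSP90AB1 (-0.76), HSPD1 (-0.73), HSPH1 (-0.71), SDF2L1 (-0.70), HSP90B1 (-0.66), HSPA4 (-0.56), PDIA4 (-0.54), HSP90AA1 (-0.53), CANX (-0.43), DNAJA1 (-0.39), MANF (-0.23) and CRELD2 (-0.08), and HSP90B1 gave 0.13 by its dimmer probe set. Among all genes 37.2% had responses of opposite sign. The count of 18 depends on the scaling and the probe set. After median centring, 8 and 3 of 33 members had responses above 0 in the control and shIKKE lines. Other probe sets of HSPH1 (0.49 and 0.06), HSPA4 (1.51 and 0.49) and PDIA4 (-0.01 and -0.08) had responses of the same sign in the control and shIKKE lines.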

How the results depend on the processing

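No paired analysis was possible because each group has 1 array and the labels give no replicate numbers; for the same reason no replicate could be left out. Median centring moved the median of all genes to log2 -0.30 for stimulation in the control line and -0.40 for the shIKKE line, from -0.07 and -0.01, and shifted members with it: the ER median for stimulation of that line was -0.50, that of the other members -0.65, and 2 members (control) and 3 (shIKKE) were 2-fold lower, with 1 past 2-fold for the difference of responses. It left 8 and 3 of 33 members above 0 with stimulation, against 16 and 10. Over all genes, 1039 were 2-fold higher and 884 lower in the stimulated control line, against 839 and 1126 after quantile normalization and 685 and 1550 after median centring; in the shIKKE line these were 1417 and 368, 1013 and 690, and 824 and 1108. With solvent, 26 of 33 members were above 0 in the shIKKE line under every setting, and with stimulation 23 to 28. With a pseudocount 4 times larger, 0 members were 2-fold lower with stimulation in the shIKKE line (129 of 13717 genes), and 1 was 2-fold higher between the stimulated lines (261 genes). There 1 member (SERPINH1, past the filter only through its solvent arrays) passed limma for stimulation (573 genes). With genes taken as the median over their probe sets, 2 members were 2-fold lower with stimulation in the control line (831 of 13717 genes). With stimulation in the shIKKE line 1 member was 2-fold higher (1495 genes), and 1 had a difference of responses at least 2-fold below 0 (717 genes). With the variance trend, 3 members (HSPA5, HSPB1 and SERPINH1) passed for stimulation and 7 for the line. Of 134 counts and medians, 121 kept their value within 1.5 times or log2 0.25 and 13 moved, given above; the causes were not tested apart from the scaling itself. Dim signals limit SERPINH1, the second probe sets of XBP1 and HERPUD1, and the dim probe sets of SEL1L.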
